A study of Mus musculus with 6 samples.

Results

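The AP-1 factors are a small family of transcription factors, and the 8 genes described here are Fos, Fosb, Fosl1, Fosl2, Jun, Junb, Jund and Atf3. They were chosen by name, as all rows whose RefSeq transcript belongs to 1 of these genes, and each gene had exactly 1 row, so that 8 of the 32025 rows, or 8 of 20263 named genes, are concerned. The cells were neural stem cells of CD-1 albino mouse embryos at stage E14.5, kept dividing as neurospheres, which are floating colonies of stem and progenitor cells. The microRNA miR-128, which the study's design says these cells do not normally express, was brought in as a mimic by nucleofection, an electrical transfection, and the other group received the control RNA miR-Control. After 72 h total RNA was extracted from each of 3 biological replicates a group and hybridised to exon arrays, 1 array for each RNA. The study set out to find target genes of miR-128, and every value below is a log2 expression value or a difference between such values.

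AP-1 proteins bind DNA as pairs held together by a leucine zipper. Jun proteins can pair with one another or with a Fos protein, Fos proteins need a Jun partner, and Atf3, a related factor of the stress response, pairs with Jun proteins or with itself. Fos, Fosb, Jun, Junb and Atf3 are early response genes, whose transcripts appear within minutes of growth factor, depolarisation or stress signals and are then degraded quickly, while Jund is transcribed more steadily. In neural tissue Fos is widely used as a mark of recent activity, and in dividing progenitors AP-1 lies downstream of the ERK and JNK kinases.

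The treatment itself is a short RNA. The labels name miR-128 without saying which arm of the hairpin the mimic carries, and the 3p arm, which is the one long called miR-128, is shown here as RefSeq gives it on GRCm38.p6. Its 21 bases are the same at both mouse loci, chr1:128202404-128202424 on the plus strand and chr9:112118644-112118664 on the minus strand. Capitals mark the seed, bases 2 to 8, through which a microRNA pairs with its targets.
mmu-miR-128-3p: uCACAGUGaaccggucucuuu

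The Fos promoter is a textbook example of a signal-controlled start. RefSeq windows ran from 250 bases before to 50 bases after the annotated start site (GRCm38.p6). They were at hand for 7 of the 8 genes, all but Fosl1. Both strands were searched for letters only, and matches are a description. The TATA motif TATAAA was found in 2 of the 7, Fos and Junb, against 13.6% of all 32851 promoter windows. In Fos it began 33 bases before the start site, and in Junb it began at base 1 of the annotated transcript. TGACG, the opening letters of the cAMP response element TGACGTCA, was found in 4 of the 7, Fos, Fosb, Junb and Atf3, against 20.8% of all windows. This short core was searched after the windows had been read. The whole element TGACGTCA (1.79% of all windows), the AP-1 sites TGACTCA and TGAGTCA (5.20% for either) and the CArG box bound by serum response factor (1.63%) had no match in the 7 windows. Sites more than 250 bases before the start site lie outside these windows and were not searched. Fos held the core TGACG at a pair of places, beginning 129 and 66 bases before the start site. The Fos TATA motif and 1 core for each gene are shown, for Fos the one nearer the start. In the 30 bases shown for each, written on the gene's own strand, capitals mark the TATA motif or the core, which in Atf3 lies on the opposite strand and therefore reads CGTCA.
Fos TATA motif, chr12:85473846-85473875, plus strand: cacagcgcttcTATAAAggcgccagctgag
Fos core, chr12:85473813-85473842, plus strand: gttccgcccagTGACGtaggaagtccatcc
Fosb core, chr7:19310087-19310116, minus strand: ggagttgcgggTGACGcaagcgcgggggcg
Junb core, chr8:84978836-84978865, minus strand: cttcctgacagTGACGcgagccgcctcctc
Atf3 core, chr1:191183322-191183351, minus strand: taatagcattaCGTCAgcctgggattggta

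The arrays had median log2 values from 7.40 to 7.54. One array, miR-Control replicate 3, lay away from the rest, at 42.5 on a first principal component on which the other 5 lay between -18.7 and -0.226. Of the 10 neural stem cell markers 5 were higher and 5 lower with miR-128, with a median difference of 0.02. Nes had mean log2 values of 11.06 in controls and 10.77 with miR-128, Sox2 11.94 and 12.04, Vim 13.57 and 13.56 and Fabp7 12.61 and 12.32. Hes5 had 9.01 and 9.34, Pax6 8.79 and 8.85, and Prom1 5.85 and 5.78. The files hold no detection call, so whether a dim row is above background is unknown. In bulk RNA, a change in the number of cells that express a gene and a change in RNA per cell cannot be told apart.

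Over the whole family, miR-128 arrays had slightly higher means than controls for all 8 genes, by 0.11 to 0.28 on the log2 scale, and no gene passed the test. The smallest adjusted p among them was 0.886, for Atf3 (limma, Benjamini-Hochberg over all 32025 rows), and the smallest unadjusted p was 0.201, so that 0 of 8 also fell under an unadjusted 0.05. Over all rows the test called 0% at an adjusted p of 0.05, and 7.15% had an unadjusted p under 0.05. The 2 groups overlapped in every one of the 8 genes, where 11.9% of all rows had groups that did not overlap. The median difference of the 8 genes was 0.14, beside 0.02 over all rows. A mean difference above 0 was found in 56.8% of all rows, and the 8 genes were read from the same 6 RNAs, so their shared sign is not 8 separate observations.

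**Figure D1:**
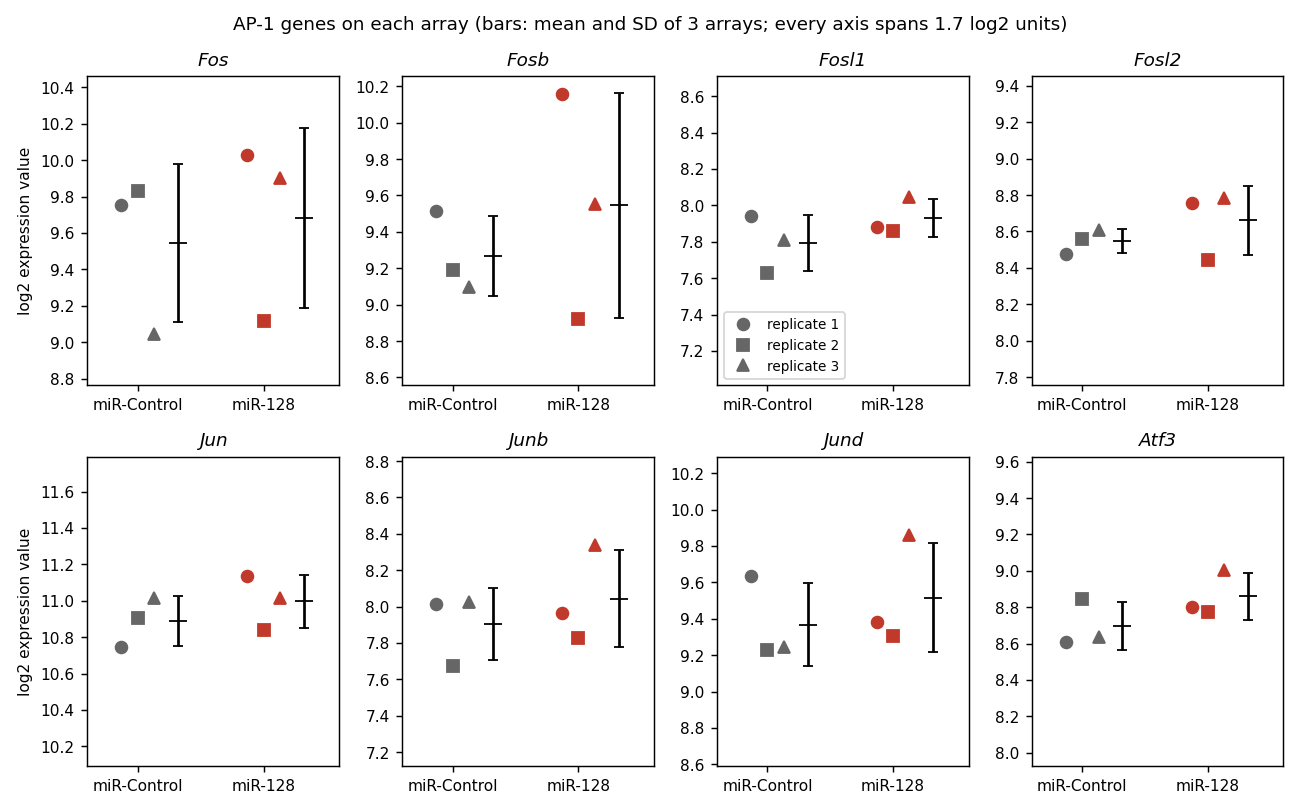
Log2 expression value (vertical axis) of each AP-1 gene on each of the 6 arrays, with miR-Control in grey and miR-128 in red, symbols for the replicate number, and black bars for the mean and SD of 3 arrays. The groups overlap in all 8 panels, and Fos and Fosb have the widest spread, from 9.04 to 10.03 and from 8.92 to 10.16.

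Fos, the founding member and the usual partner of Jun, had log2 values of 9.75, 9.83 and 9.04 on the control arrays, in the order of replicates 1 to 3 used throughout. With miR-128 it had 10.03, 9.12 and 9.90. Each group thus held 2 high arrays and 1 low array, miR-Control replicate 3 and miR-128 replicate 2, and these low arrays lay close together. The difference between group means was 0.14 (SE 0.27, 95% interval -0.48 to 0.76, adjusted p = 0.984 in limma), and it went to -0.11 without miR-Control replicate 3 and to 0.42 without miR-128 replicate 2.

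Fosb, whose short splice form is known for building up in neurons under repeated stimulation, had 9.52, 9.19 and 9.10 in the controls. With miR-128 it had 10.16, 8.92 and 9.56, so that this group held both the highest and the lowest of the 6 values. The difference was 0.28 (SE 0.27, 95% interval -0.34 to 0.89, adjusted p = 0.937 in limma), the largest of the 8 genes. Without miR-128 replicate 1 it was -0.03, and without miR-128 replicate 2 it was 0.59, with an unadjusted p of 0.0211 and an adjusted p of 0.640. The gene's single row does not tell the splice forms apart.

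Fos and Fosb were the unsteady genes of the family. Their residual SDs within groups, 0.46 for both, lay at percentile 98.1 and percentile 98.0 of all rows, against a median of 0.15. Their 95% intervals ran from -0.48 to 0.76 in Fos and from -0.34 to 0.89 in Fosb. The upper ends are 1.69-fold and 1.86-fold. With unmoderated statistics the SE was 0.38 for both genes, against 0.27 in the reported fit, so these intervals may be too narrow.

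Fosl1 and Fosl2, also called Fra-1 and Fra-2, lack the transactivation domain of Fos. Fosl1 had 7.94, 7.63 and 7.81 on control arrays, against 7.88, 7.86 and 8.05 on miR-128 arrays. All 3 miR-128 arrays lay above the control mean, but 1 alone lay above the highest control. The difference was 0.13 (SE 0.12, 95% interval -0.13 to 0.40, adjusted p = 0.926 in limma). Fosl2 had 8.48, 8.56 and 8.61 on control arrays, against 8.76, 8.44 and 8.78 on miR-128 arrays, so that replicates 1 and 3 lay above all controls and replicate 2 below all of them. Its difference was 0.11 (SE 0.12, 95% interval -0.16 to 0.39, adjusted p = 0.946 in limma), and 0.22 without miR-128 replicate 2.

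Jun, with which the Fos proteins and Atf3 can all pair, had 10.75, 10.91 and 11.01 on control arrays, against 11.13, 10.84 and 11.01 on miR-128 arrays. The ranges of the groups were alike in width, 0.27 and 0.29, and were shifted by less than that width. The difference was 0.11 (SE 0.12, 95% interval -0.17 to 0.38, adjusted p = 0.949 in limma), so that a change above 1.30-fold in either direction lay outside the interval. Leaving out 1 array at a time gave 0.04 to 0.19.

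Junb, which in many cells restrains the growth-promoting action of Jun, had 8.01, 7.68 and 8.03 on control arrays, against 7.97, 7.83 and 8.34 on miR-128 arrays. Only replicate 3 of the miR-128 arrays lay above the controls, and without it the difference of 0.14 (SE 0.16, 95% interval -0.22 to 0.50, adjusted p = 0.949 in limma) became -0.01. Jund, the steadily transcribed member, had 9.63, 9.23 and 9.24 on control arrays, against 9.38, 9.30 and 9.86 on miR-128 arrays. Here each group held 1 high array, miR-Control replicate 1 and miR-128 replicate 3. The difference was 0.15 (SE 0.17, 95% interval -0.25 to 0.54, adjusted p = 0.952 in limma), and -0.02 without miR-128 replicate 3.

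Atf3, induced by many kinds of cell stress and often a repressor when paired with itself, had 8.61, 8.85 and 8.64 on control arrays, against 8.80, 8.77 and 9.00 on miR-128 arrays. All 3 miR-128 arrays lay above the control mean of 8.70, and miR-Control replicate 2 lay above 2 of them. The difference was 0.16 (SE 0.12, 95% interval -0.10 to 0.43, adjusted p = 0.886 in limma). It had the lowest p of the family and ranked 7256 among the p-values of all rows.

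**Figure D2:**
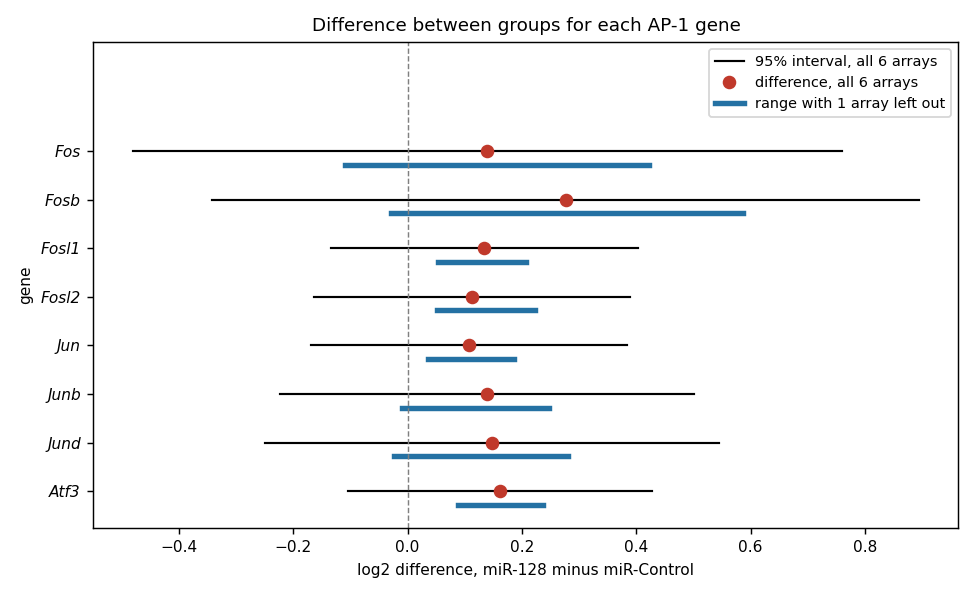
Difference in log2 value, miR-128 minus miR-Control (horizontal axis), for each AP-1 gene, with red points for all 6 arrays, black lines for the 95% interval of limma and blue lines for the range when 1 array is left out. Every interval includes 0, and the blue ranges of Fos, Fosb, Junb and Jund reach below 0 while those of Fosl1, Fosl2, Jun and Atf3 run from 0.04 to 0.24.

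Within the miR-128 group the lowest array was the same throughout the family, and the highest was not. The miR-128 replicate 2 array had the lowest value of its group in 8 of 8 genes, where it was the lowest of its group in 31.8% of all rows. The highest value of the group came from miR-128 replicate 1 for Fos, Fosb and Jun, and from miR-128 replicate 3 for the other 5 genes. Relative to each gene's control mean, the median over the 8 genes was 0.16 on miR-128 replicate 1, -0.07 on replicate 2 and 0.30 on replicate 3. Replicates 1 and 3 lay above the control mean in 8 of 8 genes each, and replicate 2 in 2 of 8, Fosl1 and Atf3.

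Among the controls no array was low or high throughout. The medians were 0.13, -0.03 and -0.02 on miR-Control replicates 1 to 3, and each was the lowest control for 2 or 3 genes. The median over all rows lay between -0.02 and 0.04 on the 6 arrays, whose values had been equalised beforehand. Whether array quality had a part in the differences among the miR-128 arrays in these genes was not tested. Without miR-128 replicate 2 the median difference of the 8 genes was 0.23, and no gene passed. Without miR-128 replicate 3 it was 0.06.

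**Figure D3:**
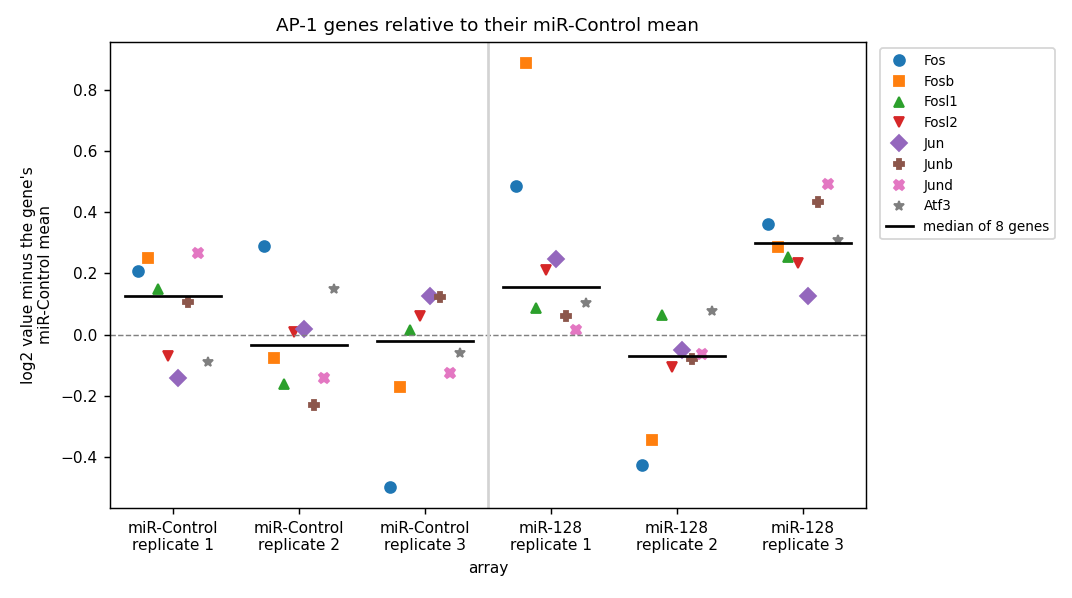
Log2 value of each AP-1 gene minus that gene's miR-Control mean (vertical axis) on each of the 6 arrays, with a symbol for each gene and a black bar for the median of the 8 genes. The bars for miR-128 replicates 1 and 3 lie at 0.16 and 0.30, and that for miR-128 replicate 2 lies at -0.07, below the 3 control bars, of which the lowest is at -0.03.

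The profiles over the 6 arrays were also compared with those of the other 20255 named genes, by the root mean square difference after each profile was centred on its own mean. This describes likeness in these 6 RNAs only. Profiles were not scaled, so the measure also depends on how widely each gene varied. The root mean square of the centred profile itself was 0.386 for Fos, 0.128 for Jun and 0.133 for Atf3. A large distance from Fos or Fosb therefore need not mean an unlike pattern. Nearest to Fos were Med30, a Mediator subunit, at 0.099, Olfr195, an olfactory receptor gene, at 0.123 and Tceal9 at 0.136, where the median gene was at 0.417. Olfr195 had log2 values of 3.42 to 4.37, among the dim rows. Of the family, Fosb lay nearest to Fos, at 0.254, which is rank 262 among the 20255 genes, and Junb furthest, at 0.402, rank 8499. Nearest to Jun were Cd55b at 0.028, Hnrnpul1, an RNA-binding protein, at 0.029 and Btg2, an early response gene that slows division, at 0.030, where the median gene was at 0.184. Cd55b had log2 values of 3.34 to 3.74, also among the dim rows. Within the family Fosl2 was nearest to Jun, at 0.066, rank 67, and Fos furthest, at 0.374, rank 19512. Nearest to Atf3 were Aldh1l1, a folate enzyme of astrocytes, at 0.018, Slc35e1 at 0.029 and Ypel1 at 0.031, where the median gene was at 0.186. Within the family Fosl2 was nearest to Atf3, at 0.116, rank 1618, and Fosb furthest, at 0.398, rank 19693.

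Around the family, 5 lists of genes were read from the same fit, and no member of any list passed over all rows. Of the leucine zipper relatives that pair with or compete with AP-1 (Atf2, Jdp2, Batf, the Maf proteins and others), 16 of 17 were measured, with 11 higher, 5 lower and a median of 0.06. Mafk, a small Maf protein without a transactivation domain, had 7.06, 7.23 and 7.07 on control arrays, against 7.32, 7.37 and 7.35 on miR-128 arrays, which is a difference of 0.23 (SE 0.10, adjusted p = 0.698 in limma) with all miR-128 arrays above all controls. Both Mafk means, 7.12 in controls and 7.35 with miR-128, lay below the median of every array. Creb1, which binds the cAMP response element, had 10.65, 10.78 and 10.79 on control arrays, against 10.53, 10.62 and 10.42 on miR-128 arrays. All its miR-128 values lay below all controls, with a difference of -0.22 (SE 0.11, adjusted p = 0.739 in limma). Groups that do not overlap were found in 6.98% of all rows on the higher side and 4.87% on the lower side, and in 1 of 16 relatives on each.

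The kinases and other factors listed as upstream of AP-1 were evenly divided: of 22, 10 were higher and 12 lower, with a median of -0.01. The JNK genes, whose products phosphorylate Jun, differed by -0.07 (Mapk8), -0.03 (Mapk9) and 0.08 (Mapk10), and Srf, which drives the Fos promoter, by -0.02. The lowest p-values belonged to Map3k1, a kinase upstream of JNK, at 0.27 (SE 0.12, adjusted p = 0.698 in limma), and Elk4, a partner of Srf, at 0.14 (SE 0.11, adjusted p = 0.900). Both had overlapping groups. In this list groups that did not overlap were found in 1 of 22 on the lower side, Rps6ka1 at -0.10, against 4.87% of all rows. On the higher side they were found in 0 of 22, against 6.98%.

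Genes that limit AP-1 or act with it, through RNA decay, protein turnover and coactivation, had 7 of 12 higher, a median of 0.18, 4 whose miR-128 arrays all lay above all controls and 2 with all of them below, against 6.98% and 4.87% of all rows. Zfp36 encodes tristetraprolin, which binds AU-rich elements in short-lived transcripts, Fos among them, and starts their decay. It had 7.47, 7.09 and 7.00 on control arrays, against 8.17, 7.61 and 8.04 on miR-128 arrays. Its control mean of 7.18 lay below the median of every array, and its miR-128 mean of 7.94 lay above. Every miR-128 value lay above every control value, replicate 2 again being the lowest of its group. The difference was 0.76 (SE 0.18, 95% interval 0.35 to 1.16), with an unadjusted p of 0.00222 and an adjusted p of 0.391 in limma, and it was 0.64 to 0.92 with 1 array left out.

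Its relatives had the same order of groups. Zfp36l1 had 8.40, 8.19 and 8.20 on control arrays, against 8.64, 8.46 and 8.61 on miR-128 arrays, a difference of 0.30 (SE 0.11, adjusted p = 0.615 in limma). Zfp36l2, named here after its values were seen, differed by 0.32 (SE 0.12, adjusted p = 0.629). These 3 genes were those of the list with an unadjusted p under 0.05 on the higher side, where 4.04% of all rows had one. The coactivators Crebbp and Ep300 each differed by 0.22 with overlapping groups, and the ubiquitin ligase gene Fbxw7, whose product marks Jun for destruction, by -0.10.

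Genes reported elsewhere as AP-1 targets were mixed in sign. Of 18, 7 were higher and 11 lower, with a median of -0.01, and the range ran from -0.46 to 0.45. Most of the 18, Lif and Plau among them, had control means below the median of every array. Mmp13 had a control mean of 4.82 and Mmp3 one of 5.32. Whether such dim rows are above background is unknown, so small differences in them say little. Ezr, which links membrane and actin, had 9.96, 9.93 and 9.52 on control arrays, against 9.23, 9.27 and 9.53 on miR-128 arrays, a difference of -0.46 (SE 0.15, adjusted p = 0.547 in limma). Lif, a cytokine, had 5.82, 6.22 and 5.96 on control arrays, against 6.64, 6.20 and 6.51 on miR-128 arrays, a difference of 0.45 (SE 0.15, adjusted p = 0.580). In both genes the groups overlapped through 1 array of each group, replicate 3 of both in Ezr and replicate 2 of both in Lif. Ccnd1, the G1 cyclin often cited as a target of Jun, was at -0.21 with no overlap (adjusted p = 0.741 in limma). Gja1, at -0.29 (adjusted p = 0.698), also had all miR-128 arrays below all controls, and Plau, at 0.16, had all of them above. That is 2 of 18 lower and 1 higher, where 4.87% and 6.98% of all rows had groups that did not overlap.

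Early response genes outside the family had 15 of 19 higher, with a median of 0.07. Egr2 had 9.06, 8.84 and 8.96 on control arrays, against 9.56, 9.19 and 9.57 on miR-128 arrays, a difference of 0.48 (SE 0.13, adjusted p = 0.461 in limma), and Nr4a1 differed by 0.57 (SE 0.19, adjusted p = 0.570). In this list 5 of 19 had an unadjusted p under 0.05 in limma on the higher side, where 4.04% of all rows had one. On the lower side 1 had one, Ier5 at -0.24, against 3.11% of all rows. Of the genes counted on the higher side, Nr4a1, Egr1, Nr4a3 and Dusp1 had overlapping groups. Groups that did not overlap were found in 1 of 19 on the higher side, Egr2, against 6.98% of all rows. On the lower side they were found in 2 of 19, Ier5 and Ier3, against 4.87%. As in the AP-1 family, the miR-128 replicate 2 array was often the lowest of its group, in 14 of the 19 listed genes, against 31.8% of all rows. Their mean relative to controls was 0.20, -0.03 and 0.24 on miR-128 replicates 1 to 3, beside 0.26, -0.12 and 0.31 for the 8 AP-1 genes.

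**Figure D4:**
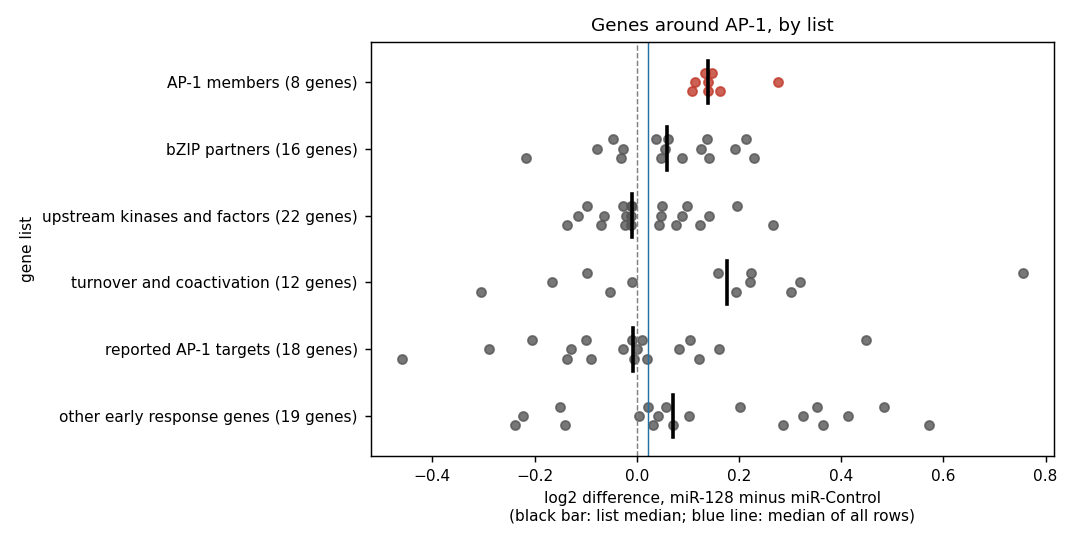
Difference in log2 value, miR-128 minus miR-Control (horizontal axis), for each measured gene of the AP-1 family (red) and of 5 related lists (grey), with a black bar for each list's median and a blue line for the median of all rows, 0.02. The AP-1 genes lie between 0.11 and 0.28, the reported targets spread from -0.46 to 0.45, and the rightmost point is Zfp36 at 0.76.

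Markers of other cell types were read beside these values. Over all rows 56.8% had a mean difference above 0, and 6.98% had groups that did not overlap on the higher side. The astrocyte list had 6 of 6 genes higher, and its mean log2 levels were 7.53 to 7.66 on the controls. With miR-128 they were 7.73 to 7.84. Groups did not overlap in 2 of the 6, Slc1a2 at 0.47 and S100b at 0.32, and overlapped in the others. The oligodendrocyte lineage list had 7 of 8 higher, with 8.46 to 8.58 on the controls and 8.68 to 8.82 with miR-128. In 3 of these 8 the groups did not overlap. Microglia and macrophage markers (7 of 7 higher, 6.20 to 6.41 and 6.31 to 6.38), neuronal markers (4 of 8 higher, 7.41 to 7.55 and 7.46 to 7.52) and vascular and mesenchymal markers (5 of 8 higher, 6.69 to 6.81 and 6.71 to 6.82) had overlapping levels. The lowest miR-128 array was replicate 1 for the astrocyte list and replicate 2 for the oligodendrocyte list. The part of these cell types in the AP-1 values was not tested.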

How the data were processed

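The deposited table holds log2 expression values, which the authors made with affy and RMA (named without versions in the submitters' processing notes). RMA corrects background, equalises arrays and summarises probes, and tends to shrink fold changes. For the genome build and the probe grouping, the source is not stated in what was used here. Rows were matched by unversioned accession to RefSeq (GRCm38.p6, names only), which named 25343 of 32025 rows. A gene with several rows was represented by the row of highest mean.

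All rows were fitted with limma 3.58.1 (R 4.3.3; lmFit, eBayes, unpaired, two-sided, no filter), with Benjamini-Hochberg adjustment over all rows and a threshold of 0.05. Intervals (95%) and SEs are of that fit. The procedure was tested on simulated data. With 3 arrays a group, array number limits the precision, and the median SE of a difference was 0.13. Members and lists were chosen with earlier results of these data known. Named genes are the 8 members, the 2 genes of smallest p in each related list, and the 3 nearest profiles to Fos, Jun and Atf3, with other genes of the lists given as examples. Atf7 had no row. Sequences are from RefSeq tables, and 3' UTR sites and proteins were not analysed here. Replicate numbers were taken from the titles. The alternatives were other normalizations, a level filter, array weights, unmoderated statistics, a replicate block, repeated rows left out and each array left out.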

Additional observations from a re-analysis of the deposited data

How the results depend on the processing

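No AP-1 gene passed under any of the 13 alternatives tried, with a smallest adjusted p of 0.421, for Jun under array weights. All 8 genes stayed above 0 after quantile normalization (median 0.14) and median centring (median 0.11), and 7 did under array weights, where Jund was at -0.037. With 1 array left out the median of the 8 ran from 0.06 to 0.23, and single genes ran from -0.11 to 0.42 (Fos), -0.029 to 0.59 (Fosb), -0.0090 to 0.25 (Junb) and -0.024 to 0.28 (Jund). Fos was below 0 without miR-Control replicate 3 (-0.11) or miR-128 replicate 1 (-0.032), Fosb without miR-128 replicate 1 (-0.029), and Junb (-0.0090) and Jund (-0.024) without miR-128 replicate 3. Over all rows 0 passed in the reported fit, 4 when only rows above the median level were tested and 24 under array weights, with 0 AP-1 genes among them. The cause was not tested for array weights, and the level filter tests fewer rows (16012). Among the genes of like profile, Med30 was at -0.010 under array weights and between -0.092 and 0.32 with 1 array left out, and Olfr195, at 0.0040 in the reported fit, was at -0.0040 after quantile normalization, -0.024 after median centring, -0.11 under array weights and between -0.26 and 0.24 with 1 array left out. Whether the replicate numbers pair the arrays cannot be told from 3 arrays a group. Deviations from the group mean correlated at -0.003, 0.17 and 0.05 for like numbers 1, 2 and 3. For unlike numbers the correlations ran from -0.24 to 0.19. With the replicate block 0 rows passed and the smallest adjusted p of an AP-1 gene was 0.796 in limma. The SE of Fosb fell from 0.27 to 0.18 with the block, and that of Atf3 rose from 0.117 to 0.125. Signal over background is unknown for each row.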
